A study of Mus musculus with 160 samples.

Results

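Phase II conjugation enzymes attach a polar group to drugs, pollutants and the body's own hormones, bile acids and pigments so that they can be carried out of the cell. The genes described here are all protein-coding mouse genes in the deposited count table whose symbol begins with Gsta, Gstm, Gstp, Gstt, Gstk, Gsto, Gstz, Ugt1a, Ugt2a, Ugt2b, Ugt3a or Sult. They number 63 of 43432 genes, with 22 glutathione S-transferases (Gst), 20 UDP-glucuronosyltransferases and their Ugt3a relatives (Ugt), and 21 sulfotransferases (Sult). The rule used symbols only and no measured value. A further 5 genes with such symbols (Gstp-ps and 4 Sult2a-ps genes) are pseudogenes and were left out, and Ugt2a1 was not analysed here.

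RNA was sequenced from liver, heart, tibialis muscle, cortex and striatum of 32 mice, giving 160 libraries. Wild-type mice received vehicle. R6/2 mice, labelled Tg(HDexon1)62Gpb on C57BL/6J, carry a transgene of exon 1 of the human huntingtin gene and received vehicle or CHDI-00390576, which the study's title calls an HDAC class IIa inhibitor, at 30 or 100 mg/kg by mouth in a twice-daily schedule. Each of the 4 arms held 8 mice, 4 male and 4 female, and no wild-type mouse received the compound, so a dose effect could be measured in R6/2 mice only. Ages are not in the labels.

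Glutathione S-transferases join glutathione to electrophiles, and the alpha, mu and pi classes are the abundant cytosolic forms of mouse liver. UDP-glucuronosyltransferases of the endoplasmic reticulum transfer glucuronic acid from UDP-glucuronate, and all Ugt1a transcripts join a first exon of their own to the same shared last exons. Sulfotransferases take the sulfo group from PAPS (3'-phosphoadenosine 5'-phosphosulfate) and act on phenols, steroids and bile acids. In rodent liver many of these genes are induced through the receptors CAR, PXR and AHR or the factor NRF2, and several differ between males and females under the control of the growth hormone pattern.

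Total counts per library, in M, ran from 30.1 to 39.04, and from 31.5 to 37.2 in liver. The liver libraries carried all 8 hepatocyte marker genes at a summed level of 79325 CPM (counts per M library counts) or more in every arm. Across the series, 16 libraries had few counts from long transcripts, 2 of them in liver (the R6/2 vehicle female 4 and the 100 mg/kg male 4). They were spread unevenly over the arms. At 100 mg/kg they were 3 of 8 libraries in cortex, 3 of 8 in striatum and 1 of 8 in each other tissue. At 30 mg/kg there were 0 in every tissue. Apart from these, 2 brain libraries of a wild-type female went against their sex label. The tests below compare CPM in edgeR's quasi-likelihood model with sex as a term, fitted per tissue over all genes, and a gene is said to rise or fall where its Benjamini-Hochberg adjusted p is under 0.05. Nothing in the labels shows that more than 1 library was made per mouse and tissue, and p-values measure the spread between mice. A number after a sex, as in female 4, is the label's replicate number within a tissue and does not follow a mouse across tissues. The wild-type female 4 of cortex and striatum is another mouse than that of liver. RNA of a whole tissue cannot tell fewer cells of a type from less RNA per cell.

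The members whose results carry the account below lie in gene clusters of close relatives, and the sequences are shown for that reason. Gsta1 (ENSMUSG00000074183, chr9:78230656-78242684, GRCm38) and Gsta2 (ENSMUSG00000057933, chr9:78331018-78355788) both rose with dose, and their coding sequences are 97.9% identical over the ungapped alignment. Coding bases 449 to 508, read 5' to 3' from the GENCODE M21 transcripts, are given with the 5 bases that differ in capitals.

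Gsta1 coding stretch: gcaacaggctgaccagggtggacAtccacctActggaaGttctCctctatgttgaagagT

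Gsta2 coding stretch: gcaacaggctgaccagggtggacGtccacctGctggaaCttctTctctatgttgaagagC

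Of the 50-base words of the Gsta1 transcript, 90.5% also occur in another gene, mainly Gm3776, whose coding sequence differs from Gsta1 at 2 of 672 bases and which has no row in the count table. For Gsta2 the shared share was 49.8%, for Gstm3 28.8% and for Gstm1 18.9%, while Gstm4 shared none. Levels of Gsta1 and Gsta2 are therefore uncertain as levels of one gene, since reads from a copy cannot be assigned.

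Proximal promoters, 250 bases before the RefSeq transcript start on GRCm38.p6, are given for 5 members described below as examples of dose, genotype and sex differences, chosen after their values were seen. Capitals mark a match to one of 5 short motifs searched on both strands: the antioxidant response element core TGACNNNGC, the xenobiotic response element core TNGCGTG, the AP-1 core TGANTCA, the STAT core TTCNNNGAA and the MEF2 frame, CTA followed after 4 bases by TAG.

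Gsta1 promoter, chr9:78230419-78230668, plus strand: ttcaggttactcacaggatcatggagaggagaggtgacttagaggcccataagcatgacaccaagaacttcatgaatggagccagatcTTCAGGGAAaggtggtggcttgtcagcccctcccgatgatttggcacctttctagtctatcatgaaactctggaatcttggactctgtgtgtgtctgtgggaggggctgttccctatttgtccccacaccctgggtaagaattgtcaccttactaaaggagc

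Gsta2 promoter, chr9:78347146-78347395, minus strand: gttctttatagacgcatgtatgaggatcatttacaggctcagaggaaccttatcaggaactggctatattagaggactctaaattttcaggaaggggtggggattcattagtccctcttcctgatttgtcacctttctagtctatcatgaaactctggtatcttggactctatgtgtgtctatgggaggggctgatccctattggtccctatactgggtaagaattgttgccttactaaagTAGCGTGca

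Gstm3 promoter, chr3:107969175-107969424, minus strand: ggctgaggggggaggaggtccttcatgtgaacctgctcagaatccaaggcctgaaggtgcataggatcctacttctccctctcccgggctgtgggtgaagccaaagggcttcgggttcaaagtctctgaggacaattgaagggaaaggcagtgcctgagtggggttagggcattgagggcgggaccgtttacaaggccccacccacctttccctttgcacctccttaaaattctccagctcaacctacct

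Gstp1 promoter, chr19:4037913-4038162, minus strand: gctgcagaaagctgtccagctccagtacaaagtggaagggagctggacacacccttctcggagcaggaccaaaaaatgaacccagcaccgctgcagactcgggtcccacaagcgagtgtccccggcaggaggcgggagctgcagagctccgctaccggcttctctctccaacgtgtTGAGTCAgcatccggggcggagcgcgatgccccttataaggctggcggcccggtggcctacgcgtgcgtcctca

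Sult3a1 promoter, chr10:33857472-33857721, plus strand: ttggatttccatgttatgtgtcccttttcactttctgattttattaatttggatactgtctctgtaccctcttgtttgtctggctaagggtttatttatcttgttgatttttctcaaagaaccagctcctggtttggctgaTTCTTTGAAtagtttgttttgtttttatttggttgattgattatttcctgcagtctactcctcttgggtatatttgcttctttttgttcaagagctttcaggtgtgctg

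The Gsta1 window holds a STAT core beginning 162 bases before the start, the Gsta2 window a xenobiotic response element core at 9 bases before it, the Gstp1 window an AP-1 core at 74 bases before it and the Sult3a1 window a STAT core at 109 bases before it. The Gstm3 window holds none of the 5. Over 66 promoters of the 55 members with a RefSeq entry, the AP-1 core was present in 16.7%, against 6.75% of all 32851 promoters of the table. The other shares were 4.55% against 10.2% for the antioxidant response element core, 4.55% against 4.1% for the xenobiotic response element core, 6.06% against 7.02% for the STAT core and 4.55% against 3.2% for the MEF2 frame. AP-1 and antioxidant response element matches can overlap, and neighbouring members share promoter sequence, so these shares are descriptions of letters in a window.

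In wild-type mice the family was foremost a liver family. By mean FPKM, which is scaled for transcript length, 53 of the 63 members were highest in liver, 4 in heart, 4 in cortex, 1 in tibialis and 1 in striatum. A mean of at least 1 FPKM was reached by 48 members in liver, 19 in cortex, 18 in heart, 18 in striatum and 16 in tibialis. The 28 members at 1 FPKM or more in liver and below it in the other tissues comprised 15 Ugt, 10 Sult and 3 Gst genes. A further 13 members were below 1 FPKM in all 5 tissues. Some of these count among the 53 by levels near 0, such as Ugt1a8 at 0.019 and Ugt2a2 at 0.0054 FPKM in liver.

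Gsta3, an alpha-class transferase, was the most abundant member in wild-type liver at 1164 ± 172 FPKM (SD, n = 8). Gstm1, the main mu-class transferase, followed at 1133 ± 157 FPKM. Gstp1, the pi-class transferase, averaged 1017 FPKM but ranged from 256 to 2027 between mice, a spread that falls along sex as described below. Gsta3 and Gstm1 do not differ beyond their spread, and the wide range of Gstp1 covers both.

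The next levels were 449 ± 84.8 FPKM for Ugt2b5, 408 ± 130 FPKM for Sult2a8, a bile acid sulfotransferase of mouse liver, and 397 ± 40.5 FPKM for Ugt2b36. Ugt1a1, the bilirubin-conjugating enzyme, stood at 372 ± 57.5 FPKM and Gstz1, the maleylacetoacetate isomerase of tyrosine breakdown, at 361 ± 24.7 FPKM. Neighbours in this group lie within each other's SD. Ugt2b1 at 244 ± 94.1 FPKM and Sult1a1, a phenol sulfotransferase, at 243 ± 76.8 FPKM closed the 10 highest.

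Some members were the reverse of this pattern. Sult4a1, a sulfotransferase-like protein of neurons, averaged 160 FPKM in cortex and 103 FPKM in striatum against 0.02 FPKM in liver. Gstm5 averaged 111 FPKM in cortex and 113 FPKM in striatum against 7.31 FPKM in liver. Gstp2 was highest in tibialis, at 47.7 FPKM.

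**Figure D1:**
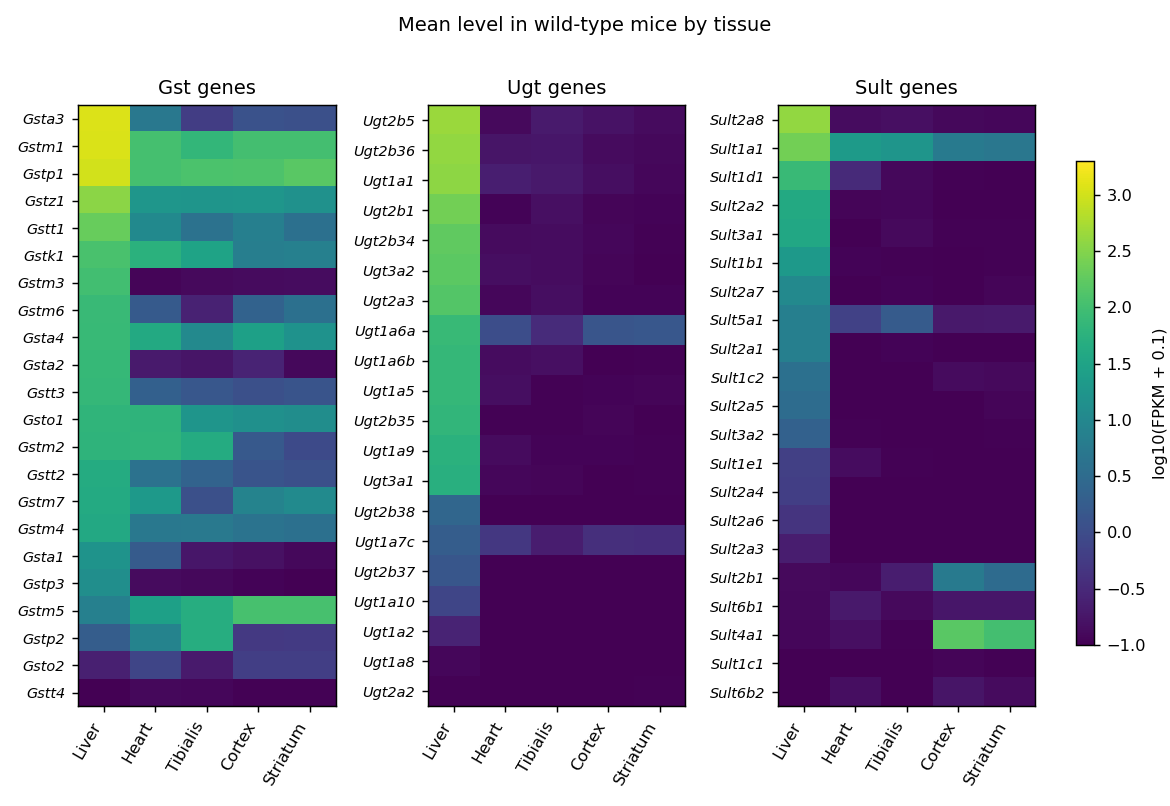
Mean level of each member in the 5 tissues of wild-type mice (n = 8 per tissue), in panels for Gst, Ugt and Sult genes ordered by liver level, with colour showing log10(FPKM + 0.1). Most rows are brightest in the liver column, where 53 of 63 members have their highest mean, and Sult4a1 and Gstm5 are brightest in the brain columns.

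At 100 mg/kg, liver RNA of R6/2 mice held more transcript of 3 mu-class and 2 alpha-class glutathione S-transferases than at vehicle, and slightly more of 2 Ugt2b genes. Gsta1 was about 7.98-fold, Gstm3 5.24-fold, Gsta2 2.54-fold, Gstm1 2.22-fold and Gstm4 2.09-fold its vehicle level. Of 52 members tested, 7 rose and 0 fell, beside 2.06% of all 14931 genes tested that changed in either direction and 1.39% that rose. The members' median log2 change was 0.13, against -0.0074 over all genes. By class, 5 of 20 Gst, 2 of 18 Ugt and 0 of 14 Sult genes passed the test, with median log2 changes of 0.31, 0.10 and -0.06. Among the Sult genes 4 had an unadjusted p under 0.05, beside 16.2% of all genes, and DESeq2 called 0 higher and 1 lower.

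Gstm3 (ENSMUSG00000004038, chr3:107963696-107969283), a mu-class transferase, had 68.7 CPM in the lowest vehicle mouse, a median of 101 and 162 in the highest. At 30 mg/kg these values were 120, 171 and 334 CPM, and at 100 mg/kg 245, 418 and 1230 CPM. All 8 mice at 100 mg/kg were above every vehicle mouse, as were 5 of 8 at 30 mg/kg. The log2 change at 100 mg/kg was 2.39 ± 0.33 (SE, adjusted p = 8.69e-05).

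Gstm1 (ENSMUSG00000058135, chr3:108012255-108017973) ran from 1058 over a median of 1500 to 1998 CPM at vehicle. It ran from 1486 over 1907 to 3583 CPM at 30 mg/kg and from 2431 over 2979 to 5417 CPM at 100 mg/kg. The 100 mg/kg and vehicle groups did not overlap, and wild-type livers, at 1308 to 1974 CPM, lay within the vehicle range. The log2 change at 100 mg/kg was 1.15 ± 0.17 (adjusted p = 0.000147).

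Gstm4 (ENSMUSG00000027890, chr3:108040408-108044894), which shares no 50-base word with another gene, had a lowest, median and highest level of 35.6, 57.3 and 73 CPM at vehicle. At 30 mg/kg it had 64.4, 72.2 and 111 CPM and at 100 mg/kg 94.4, 109 and 164 CPM. The top and bottom doses again did not overlap. Its log2 change of 1.06 ± 0.14 had the smallest adjusted p of the members (4.39e-05). These 3 mu-class genes are neighbours on chromosome 3.

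Gsta1, an alpha-class transferase known as inducible in mouse liver, had 16.1, 6.41, 11 and 11.3 CPM in the vehicle males and 5.36, 2.62, 1.67 and 4.03 CPM in the vehicle females. At 30 mg/kg the males had 20.5, 11.6, 57 and 45.8 CPM and the females 6.88, 6.21, 12.3 and 8.22 CPM. At 100 mg/kg the males had 25.8, 71.6, 46.9 and 185 CPM and the females 8.53, 43.4, 18.2 and 54.5 CPM. Within each sex the 100 mg/kg mice were above all vehicle mice, and across sexes 1 female at 100 mg/kg fell within the vehicle range. The log2 change was 2.997 ± 0.53 (adjusted p = 0.00179).

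Gsta2, its near copy, went from a vehicle range of 14.3 to 64.6 CPM (median 36.5) to 42.7 to 196 CPM (median 74.7) at 100 mg/kg. Of the mice at 100 mg/kg, 7 of 8 were above every vehicle mouse. The log2 change was 1.35 ± 0.27 (adjusted p = 0.00453). The wild-type range, 41.6 to 110 CPM with a median of 73.7, lay at the level of the 100 mg/kg mice.

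The 100 mg/kg male 4 was the highest mouse for Gsta1, Gstm1, Gstm3 and Gstm4, and its library is one of the 2 liver libraries with few counts from long transcripts. Without it the log2 changes were 2.61 for Gsta1, 2.12 for Gstm3, 1.04 for Gstm1, 0.99 for Gstm4 and 1.22 for Gsta2, and all 5 passed.

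Ugt2b34 (ENSMUSG00000029260, chr5:86889767-86906937), a liver glucuronosyltransferase, moved from 486 to 634 CPM (median 527) at vehicle to 576 to 846 CPM (median 673) at 100 mg/kg. Its log2 change was 0.33 ± 0.07 (adjusted p = 0.0119), with 6 of 8 mice above all vehicle mice, and its adjusted p was 0.056 when only those 2 arms were fitted. Ugt2b35 (ENSMUSG00000035811, chr5:87000860-87013275) moved from 55.6 to 118 CPM (median 89.4) to 97.1 to 160 CPM (median 130). Its log2 change was 0.58 ± 0.15 (adjusted p = 0.0404). The call was lost without a filter on low counts (adjusted p = 0.0574) and with only those 2 arms fitted (0.0501). By limma-trend on log2(FPKM + 0.1) it was lost too (adjusted p = 0.0525). It was also lost with the form of the column name as a covariate (adjusted p = 0.0788), and in 11 of the 32 fits that left out 1 library. The calls of the 5 Gst genes and of Ugt2b34 were kept in all 32 of those fits.

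**Figure D2:**
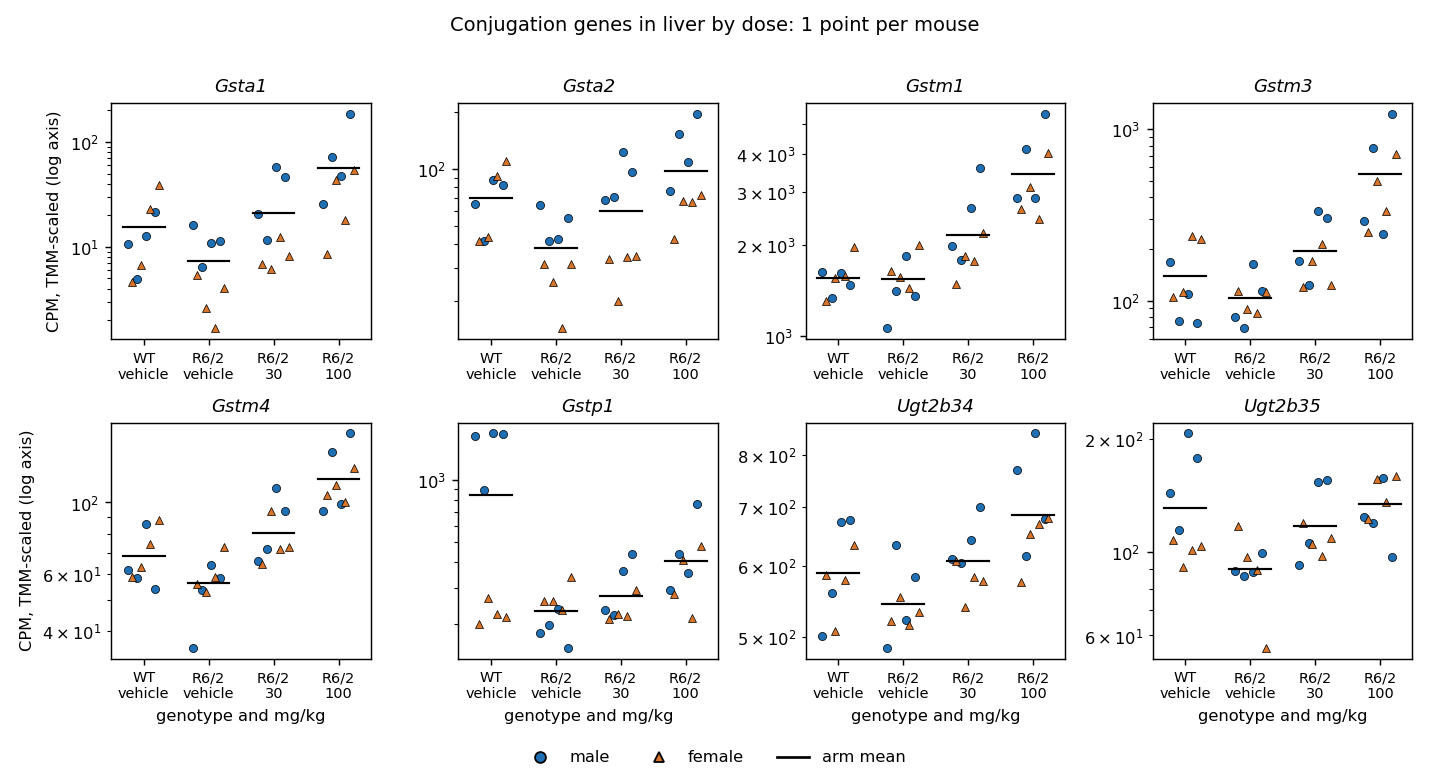
Liver CPM (log axis) of the 7 members that rose at 100 mg/kg and of Gstp1, 1 point per mouse with males as circles and females as triangles, for wild-type vehicle, R6/2 vehicle, 30 mg/kg and 100 mg/kg. Bars are arm means (n = 8), and Gstm1, Gstm3 and Gstm4 show no overlap between R6/2 vehicle and 100 mg/kg.

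Among members that did not pass at 100 mg/kg, Gsta4, the alpha-class transferase for lipid aldehydes, came nearest with a log2 difference of 0.53 ± 0.15 (adjusted p = 0.0552). The most abundant one, Gsta3, differed by only 0.06 on the log2 scale. Sult1e1, the estrogen sulfotransferase, had 17.3 and 9.35 CPM in 2 of the 8 mice at 100 mg/kg and under 0.56 CPM in the rest. Its fitted log2 difference of 2.99 ± 1.05 therefore rests on those 2 mice and did not pass (adjusted p = 0.132). Sult5a1 had a log2 difference of -1.06 ± 0.35 (adjusted p = 0.104).

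At 30 mg/kg no member passed the test against vehicle, by edgeR or by DESeq2, and 0% of all 14931 genes passed by edgeR. Unadjusted p was under 0.05 for 9 of 52 members, beside 7.35% of all genes. The members' median log2 difference was -0.0022 against -0.018 over all genes. Gstm4 had the smallest p, with a log2 difference of 0.51 ± 0.14 (adjusted p = 0.6). Ugt1a7c followed at 0.65 ± 0.20 (adjusted p = 0.6) and Gstm1 at 0.48 ± 0.16 (adjusted p = 0.61). A test that misses its threshold does not show that the low dose was without effect.

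Between 100 and 30 mg/kg, 0 members passed by edgeR, beside 0.0067% of all genes, and 8 had an unadjusted p under 0.05, beside 7.27% of all genes. DESeq2 called 3, with adjusted p of 0.00988 for Gstm3, 0.0264 for Gstm1 and 0.0455 for Gstm4. In edgeR the log2 differences were 1.49 ± 0.32 for Gstm3 (adjusted p = 0.123), 0.67 ± 0.16 for Gstm1 (adjusted p = 0.183) and 0.55 ± 0.14 for Gstm4 (adjusted p = 0.225). The 3 mu-class genes thus were higher at 100 than at 30 mg/kg by one tool and not by the other.

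A linear trend over 0, 30 and 100 mg/kg in the 24 R6/2 livers, in log2 units per 100 mg/kg, rose for 8 members and fell for 0. Of all 14773 genes in that fit, 1.84% had a trend in either direction and 1.27% a rising one. The slopes were 2.86 ± 0.41 for Gsta1, 2.32 ± 0.28 for Gstm3, 1.30 ± 0.19 for Gsta2, 1.11 ± 0.17 for Gstm1, 1.01 ± 0.14 for Gstm4 and 0.32 ± 0.07 for Ugt2b34. The largest adjusted p of these 6 was 0.0111, for Ugt2b34.

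Gstt3, a theta-class transferase, and Gstp1 rose in the trend though not in the 2-dose comparison. Gstt3 went from 94.2 to 163 CPM (median 142) at vehicle to 141 to 225 CPM (median 195) at 100 mg/kg, with a slope of 0.47 ± 0.10 (adjusted p = 0.0166). Gstp1 went from 154 to 337 CPM (median 236) to 214 to 767 CPM (median 381), with a slope of 0.78 ± 0.20 (adjusted p = 0.0461). Both ranges overlap, and the Gstp1 trend was lost in 17 of the fits that left out 1 library.

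**Figure D3:**
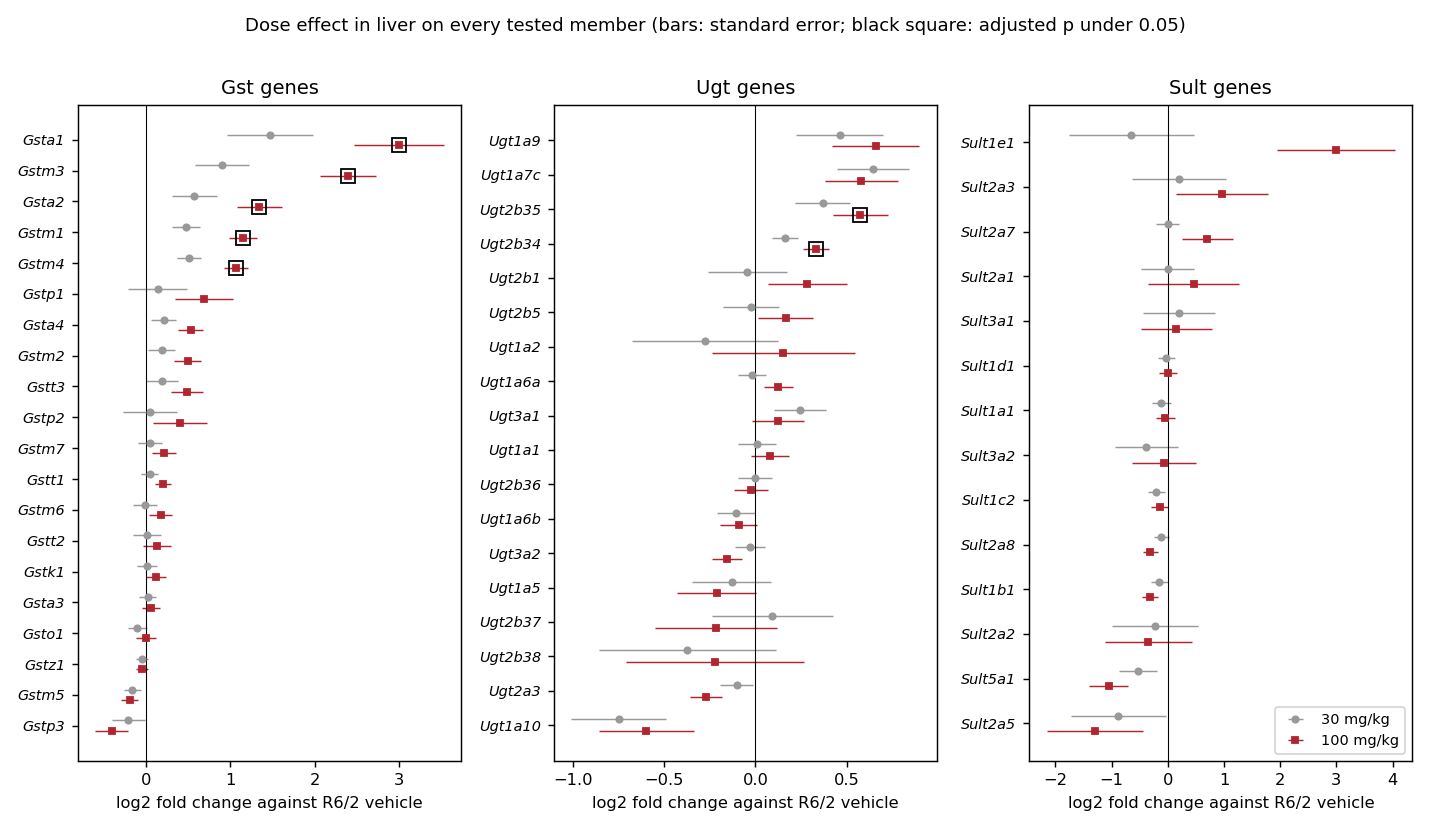
Log2 change against R6/2 vehicle in liver for the 52 tested members, in panels for Gst, Ugt and Sult genes, with circles for 30 mg/kg, squares for 100 mg/kg, bars of 1 SE and black frames where adjusted p is under 0.05. The frames mark 5 Gst and 2 Ugt genes at 100 mg/kg, and no 30 mg/kg point is framed. The 3 panels have x axes of different span.

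In each sex taken alone, the same 5 Gst genes rose at 100 mg/kg. In males 8 members rose and 0 fell, beside 0.918% of all genes called in either direction. Gstm1, Gstm4, Gstm3, Gsta2 and Gsta1 were joined there by Ugt2b5 (log2 change 0.71 ± 0.15, adjusted p = 0.0189), Gstp1 (1.26 ± 0.27, adjusted p = 0.0193) and Gsta4 (0.83 ± 0.19, adjusted p = 0.0295). In females 5 members rose and 1 fell, beside 1.63% of all genes. The one that fell was Sult5a1, by 1.66 on the log2 scale, from 11.7, 18.2, 26.4 and 39 CPM at vehicle to 10, 6.79, 6.86 and 6.49 CPM at 100 mg/kg, groups that do not overlap.

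The difference between the sexes in the 100 mg/kg effect passed for 0 members in edgeR, where 0% of all genes passed. Unadjusted p was under 0.05 for 14 of 52 members, against 18.6% of all genes. DESeq2 called 1, Ugt2b5, at an adjusted p of 0.00767. For Ugt2b5 the males went from 525, 683, 586 and 681 CPM to 866, 898, 1070 and 1205 CPM, and the females from 904, 974, 914 and 1151 CPM to 716, 877, 696 and 934 CPM. The edgeR estimate of the male minus female effect was 0.997 ± 0.21 on the log2 scale (adjusted p = 0.133), followed by 0.53 ± 0.16 for Ugt2b36 (adjusted p = 0.137) and 0.86 ± 0.31 for Ugt2b1 (adjusted p = 0.163).

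Among genes for the supply of the cosubstrates at 100 mg/kg, Ugdh, the UDP-glucose dehydrogenase that makes UDP-glucuronate, rose from 177 ± 24.2 to 262 ± 48.5 CPM (SD, log2 change 0.57 ± 0.11, adjusted p = 0.00282). Of 13 glutathione genes 1 rose, Gsr, the glutathione reductase, by a log2 change of 0.34. Of 9 PAPS genes 1 fell, the transporter Slc35b2, by 0.27 on the log2 scale. The median log2 changes of the glutathione and PAPS lists were 0.002 and 0.01, against -0.0074 over all genes.

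Of 20 further genes on a list of drug metabolism that is not limited to conjugating enzymes, 3 rose. These were Ephx1, the microsomal epoxide hydrolase (0.62 on the log2 scale), Aldh3a2, the fatty aldehyde dehydrogenase (0.50), and Ptges, a prostaglandin E synthase (1.42). Of 14 efflux and uptake transporters 1 rose, Abcc4 (1.22), and 1 fell, Slc22a7 (-1.14). All lists here were chosen with earlier results of these data known, so their counts are descriptions only. Of all genes 1.39% rose, and the median log2 change was -0.0074. Of 20 genes commonly listed as CAR or PXR targets 6 rose, with a list median of 0.33, including Cyp2c29 (1.13, adjusted p = 2.7e-05), Cyp2b10 (1.89), Cyp2c55 (2.17) and the carboxylesterase Ces2a (0.56). Of 19 commonly listed NRF2 targets outside the members 6 rose, with a list median of 0.39, including Aox1 (0.75), Srxn1 (0.55) and Ephx1. Of 8 AHR targets 0 passed by edgeR, 2 had an unadjusted p under 0.05, and DESeq2 called 1 higher and 1 lower. The lists overlap, Ephx1 and Abcc4 being in more than one, and at 30 mg/kg 0 genes of any list passed by edgeR or DESeq2, with 0 to 5 genes a list at an unadjusted p under 0.05.

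Of 30 regulators of these genes, 2 fell at 100 mg/kg: Cebpa (by 0.43 on the log2 scale), a hepatocyte transcription factor, and Nr1h4 (by 0.35), the bile acid receptor. By edgeR 0 genes of the liver cell marker lists passed at 100 mg/kg. Of 8 hepatocyte markers 1 had an unadjusted p under 0.05 and DESeq2 called 0, and their sum was 79325 to 123799 CPM at vehicle and 80183 to 134160 CPM at 100 mg/kg. The 6 endothelial markers summed to 210 to 305 CPM at vehicle and 98.7 to 285 CPM at 100 mg/kg, with 3 at an unadjusted p under 0.05 and 1 lower by DESeq2. The 6 Kupffer cell markers summed to 232 to 547 CPM and 78.8 to 518 CPM, with 5 at an unadjusted p under 0.05 and 1 lower by DESeq2. The part of these cells in the result was not tested.

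The R6/2 genotype changed more members than the compound did, and in both directions. Of 52 tested liver members, 13 rose and 7 fell in R6/2 vehicle against wild-type vehicle mice, beside 12.8% of all genes (6.5% higher, 6.32% lower). The members' median log2 change was -0.03 against 0.0053 over all genes. By class, 7 of 14 Sult genes rose and 1 fell, 4 of 18 Ugt genes rose and 4 fell, and 2 of 20 Gst genes rose and 2 fell. The median over the Sult genes was 1.24. Of the 7, Sult2a3 averaged 0.12 FPKM in wild-type liver, with 0.51 FPKM in the highest mouse. A gene that low may have passed the expression filter through R6/2 livers only, and its rise would then be fixed by the filter. Sult2a3 is included in the 13, the 7 and the Sult median. Taken alone, males had 12 members higher and 9 lower, beside 10.1% of all genes, and females 7 higher and 3 lower, beside 5.34%.

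Ugt2b37 (ENSMUSG00000057425, chr5:87240493-87254804) had 1.41, 1.49, 1.33 and 1.69 CPM in wild-type males and 9.87, 1.88, 1.93 and 1.31 CPM in wild-type females. In R6/2 vehicle males it had 4.97, 11.7, 7.39 and 8.12 CPM and in R6/2 vehicle females 36.3, 68, 111 and 85.1 CPM. Within each sex the genotypes did not overlap. The log2 change was 3.55 ± 0.39 (adjusted p = 4.12e-07), the smallest adjusted p of the members.

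The remaining members with the smallest p were spread over the classes. Ugt1a6b fell, from 147 to 226 CPM (median 182) in wild type to 75.3 to 136 CPM (median 116), with a log2 change of -0.71 ± 0.10 (adjusted p = 2.46e-05). Ugt1a6a, a phenol-conjugating form like it, went from 169 to 243 CPM to 120 to 168 CPM and fell by 0.48 ± 0.08 (adjusted p = 0.00013). Neither pair of groups overlapped.

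Gstm5 rose from 5.34 to 9.47 CPM (median 7.71) to 9.1 to 15.9 CPM (median 11.1), a log2 change of 0.63 ± 0.10 (adjusted p = 0.000111). Ugt1a5 rose from 64 to 288 CPM (median 163) to 260 to 473 CPM (median 406), a log2 change of 1.28 ± 0.22 (adjusted p = 0.000229). For both the groups overlapped at the edges. Ugt1a transcripts share their last exons, and 64% of the 50-base words of Ugt1a5 and 79.8% of those of Ugt1a6b occur in another gene, so the split of counts among Ugt1a members is uncertain.

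Gstp3 rose from 6.34 to 13.6 CPM to 11.9 to 33.2 CPM, a log2 change of 0.93 ± 0.20 (adjusted p = 0.0019). Sult1c2 rose from 5.55 to 9.4 CPM to 7.97 to 16.3 CPM, a log2 change of 0.70 ± 0.15 (adjusted p = 0.00304). Both pairs of ranges overlap. Sult3a2 had 0 to 0.0689 CPM in wild-type males and 2.46 to 6.59 CPM in wild-type females, and 0 to 2.36 and 12.4 to 93.5 CPM in the R6/2 males and females. It passed the test (adjusted p = 0.00052), and no fold is given because the wild-type males held 0 to 2 counts.

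Members that fell included Gstp1, by 1.53 ± 0.37 on the log2 scale (adjusted p = 0.00635), Ugt2b1, by 0.93 ± 0.22 (adjusted p = 0.00542), and Gsta2, by 1.04 ± 0.27 (adjusted p = 0.00917). Sult2a8 fell by 0.50 ± 0.13 (adjusted p = 0.00926) and Ugt2b35 by 0.52 ± 0.15 (adjusted p = 0.0232). For Gsta2 and Ugt2b35 these changes stand beside the rises at 100 mg/kg given above, in a comparison that shares the R6/2 vehicle mice.

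Cell markers of the liver moved with the genotype too. Of 8 hepatocyte markers 4 fell, with a summed level of 99884 to 121234 CPM in wild type and 79325 to 123799 CPM in R6/2, and of 8 periportal hepatocyte markers 6 fell (7291 to 13207 and 4682 to 8544 CPM). Of 8 pericentral hepatocyte markers 3 fell and 1 rose. The median log2 change was -0.67 for the periportal and -0.22 for the pericentral markers. All 5 red cell markers fell (316 to 574 and 153 to 384 CPM), 4 of 6 lymphocyte markers rose (2.1 to 7.74 and 3.6 to 11.3 CPM) and 2 of 6 Kupffer cell markers rose (180 to 373 and 232 to 547 CPM). Their part in the result was not tested.

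R6/2 livers at 100 mg/kg, set against wild type, had 18 members higher and 4 lower, beside 15% of all genes. Gstm1 (log2 change 1.13 ± 0.17), Gstm3 (1.95 ± 0.33) and Gstm4 (0.80 ± 0.14) were above wild type. Ugt2b37 (3.34 ± 0.38), Ugt1a9 (1.49 ± 0.25) and Sult3a2 (adjusted p = 0.000476) were higher, and Ugt1a6b (-0.80 ± 0.10) and Sult2a8 (-0.81 ± 0.13) lower. Gsta2, at the wild-type level by its median, did not pass.

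Several members differed between the sexes of wild-type mice. Of 52 members, 4 were higher and 8 lower in males than in females, beside 2.45% of all genes. Those higher in males were Gstp1, Gstp2, Sult2a8 and Ugt2b1. Those lower in males were Sult3a1, Sult3a2, Sult2a1, Sult2a2, Sult2a5, Sult2a7, Gstt3 and Ugt1a9, so 6 of the 8 are sulfotransferases, beside 14 of the 52 tested. Of the 50-base words of Sult2a1, Sult2a2 and Sult2a5, 33.2%, 62.1% and 34.5% occur in another gene, so their counts may not be separate.

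Gstp1 (ENSMUSG00000060803, chr19:4035407-4037985) had 1632, 898, 1682 and 1660 CPM in wild-type males against 201, 269, 225 and 217 CPM in wild-type females, without overlap. The log2 difference was 2.69 ± 0.28 (adjusted p = 3.64e-07), and 33.7% of the 50-base words of Gstp1 occur in another gene, mainly its neighbour Gstp2. In R6/2 vehicle mice the males had 181, 198, 238 and 154 CPM and the females 259, 259, 235 and 337 CPM. The R6/2 males lay below every wild-type male, and 3 of the 4 also lay below every female of either genotype.

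Sult3a1 (ENSMUSG00000069668, chr10:33857721-33879532), an amine sulfotransferase, had 0.156, 0.31, 0.105 and 0.62 CPM in wild-type males and 74.8, 109, 93.9 and 52.3 CPM in wild-type females. The log2 difference was -8.10 ± 1.003 (adjusted p = 5.3e-06). In R6/2 vehicle males it had 1.65, 44.5, 20 and 39.8 CPM, above every wild-type male, and in R6/2 vehicle females 162, 264, 520 and 517 CPM, above every wild-type female.

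Sult2a2 (ENSMUSG00000070811, chr7:13733505-13779636), of the steroid and bile acid sulfotransferases, had 0.0938, 0.0931, 0.175 and 0.861 CPM in wild-type males and 27.6, 5.29, 85.8 and 140 CPM in wild-type females. In R6/2 vehicle it had 80.8, 8.22, 8.52 and 103 CPM in males and 52.6, 135, 223 and 205 CPM in females. The R6/2 males lay within the range of the wild-type females. Of its 50-base words 62.1% occur in another gene, so a share of these counts may belong to other Sult2a genes.

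Among R6/2 vehicle mice, 0 members were higher and 5 lower in males than in females, beside 0.496% of all genes. These were Ugt2b37 (log2 difference -3.22 ± 0.44), Sult3a2 (-5.58 ± 0.92), Sult3a1 (-3.79 ± 0.74), Ugt2b5 (-0.67 ± 0.15) and Sult5a1 (-1.90 ± 0.44). Of these, Sult3a1 and Sult3a2 were also lower in the males of the wild type. The calls of Sult5a1, Ugt2b5 and Sult3a1 were lost in 12, 6 and 2 of the 32 fits that left out 1 library.

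The difference between the sexes in the genotype effect passed for 8 members, 3 with the more positive effect in males and 5 with the more negative one, beside 1.79% of all genes. For Gstp1 the male minus female effect was -3.19 ± 0.39 on the log2 scale (adjusted p = 1.55e-05). Taken alone, males changed by -2.93 ± 0.29 and females by 0.26 ± 0.27, and the latter did not pass (adjusted p = 0.611).

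Ugt2b1 had 817, 627, 1144 and 1051 CPM in wild-type males and 182, 332, 258 and 279 CPM in R6/2 vehicle males, without overlap. The females had 599, 404, 484 and 341 CPM in wild type and 395, 505, 431 and 451 CPM in R6/2, which overlap. The male minus female effect was -1.75 ± 0.31 (adjusted p = 0.00189).

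Ugt2b5 followed at -1.14 ± 0.21 (adjusted p = 0.00352), with 975, 897, 1187 and 1140 CPM in wild-type males against 525, 683, 586 and 681 CPM in R6/2 males, without overlap. Wild-type females had 958, 731, 672 and 666 CPM, which overlap the wild-type males, and that difference between the sexes did not pass (log2 difference 0.47 ± 0.15, adjusted p = 0.0971). In R6/2 vehicle mice every female, at the values given above, was above every male. Gstp2 (-2.31 ± 0.49, adjusted p = 0.0117) and Ugt2b38 (-3.15 ± 0.82, adjusted p = 0.0413) also had the more negative effect in males. Of the 50-base words of Ugt2b38, 37.4% occur in another gene, mainly Ugt2b5, so its values may include Ugt2b5 reads. For Ugt2b5 the shared share was 41.7% and for Ugt2b37 18.3%.

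Gstt3 (1.10 ± 0.28, adjusted p = 0.038), Sult2a5 (adjusted p = 0.0383) and Sult2a2 (adjusted p = 0.0431) had the more positive effect in males. For the last 2 the size depends on wild-type males near 0: Sult2a5 had 0, 0, 0.0349 and 0.0689 CPM there, 3.08, 0.243, 16.2 and 9.12 CPM in wild-type females, and 16, 0.181, 0.698 and 4.35 CPM in R6/2 males. The calls of Gstt3, Sult2a5, Ugt2b38 and Sult2a2 were lost in 11, 11, 13 and 18 of the 32 fits that left out 1 library, and those of Gstp1, Ugt2b1, Ugt2b5 and Gstp2 were kept in all of them.

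**Figure D4:**
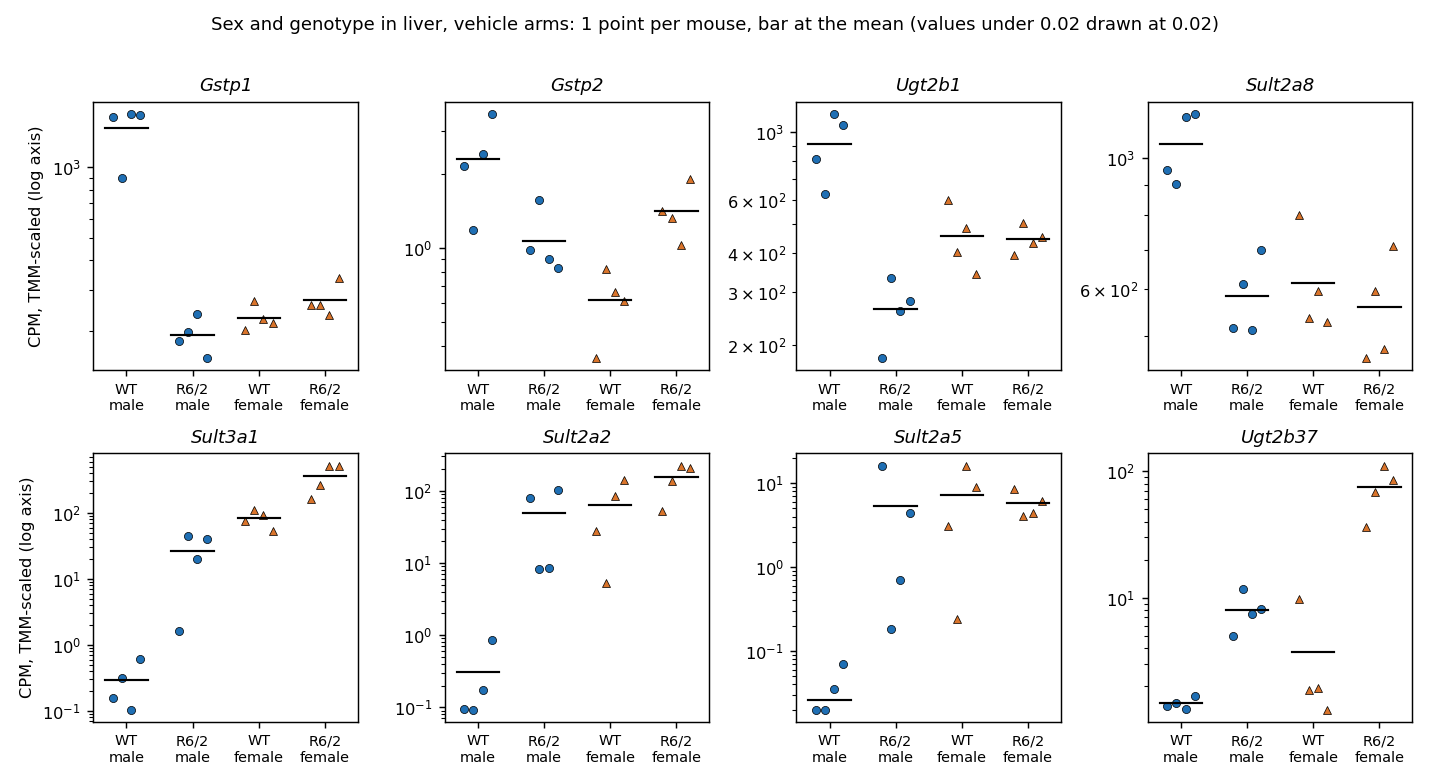
Liver CPM (log axis, values under 0.02 drawn at 0.02) of 8 members in the vehicle arms, 1 point per mouse, for wild-type and R6/2 males (circles) and females (triangles), with bars at the means (n = 4). Gstp1 and Ugt2b1 are high in wild-type males, and Sult3a1 and Sult2a2 are under 1 CPM in them and above it in the 3 other groups.

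Genes outside the family that are known to differ between the sexes in mouse liver changed as well. Of 13 tested male-biased genes, 12 were higher in wild-type males, and 10 fell and 0 rose in R6/2, with a median log2 change of -2.43. Of 18 female-biased genes, 14 were lower in wild-type males, and 14 rose and 1 fell in R6/2, with a median of 2.82, against 0.0053 over all genes. Examples are the urinary protein gene Mup20, which went from 1838 ± 1906 to 88.1 ± 35.1 CPM (SD, n = 8), and the female-biased Cyp3a16, which went from 3.81 ± 1.9 to 257 ± 191 CPM. Among 30 regulators 6 rose and 3 fell, including the female-biased repressor Cux2 (log2 change 3.43 ± 0.65) and the male-biased repressor Bcl6 (-2.44 ± 0.52).

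The Gst genes were also summed over the class, and these sums and shares were not tested. In wild-type males the Gst genes summed to 5187 ± 559 FPKM (SD, n = 4), of which Gstp1 made up 33.6%, and in R6/2 vehicle males to 4055 ± 437 FPKM. At 30 and 100 mg/kg the males summed to 5445 ± 878 and 7069 ± 1364 FPKM. Females summed to 4193 ± 645 FPKM in wild type, 4052 ± 190 at vehicle, 4318 ± 363 at 30 and 5971 ± 785 at 100 mg/kg, and the first 3 of these lie within each other's spread. At 100 mg/kg Gstm1 made up 41.3% of the sum in males and 42.3% in females.

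Outside the liver fewer members were expressed, and in each of the 4 other tissues some changed with the genotype. Tests were run within a tissue, so a difference between tissues was not tested. Of the 19 members tested in all 5 tissues, 7 changed in at least 3 of them (Gsta4, Gstk1, Gstm1, Gstm4, Gstm5, Gstm7 and Gsto1), which is 36.8%, beside 26.7% of the 13072 genes tested in all 5. Of the 19, 9 rose in one tissue and fell in another (47.4%, beside 19.7% of those genes), and for Gstm4 and Gstz1 the only fall was in tibialis, where the sign turns on the FPKM scale.

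In cortex, R6/2 vehicle mice had 3 of 22 tested members higher and 10 lower than wild type, beside 53.9% of all genes, with a median log2 change of -0.19 against 0.02 over all genes. Gstm1, which in brain is chiefly an astrocyte gene, went from 115 to 153 CPM (median 137) to 72.5 to 105 CPM (median 94.9), without overlap. Its log2 change was -0.58 ± 0.08 (adjusted p = 1.48e-07). Gsto1, an omega-class transferase with thioltransferase activity, went the other way, from 15.8 to 19.9 CPM (median 17.6) to 21.4 to 26.4 CPM (median 23.6), also without overlap (0.42 ± 0.06, adjusted p = 2.77e-07).

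Gsta3 in cortex fell from 1.05 to 2.68 CPM (median 1.4) to 0.629 to 0.872 CPM (median 0.716), a log2 change of -1.06 ± 0.15 (adjusted p = 3.05e-07). The highest of these, in the wild-type female 4, came from the cortex library with the most albumin transcript (Alb at 67.6 CPM, against a median of 0.03 over cortex libraries). Without it the wild-type range was 1.05 to 1.75 CPM and the log2 change -0.92 (adjusted p = 1.86e-07). Ugt1a6a fell by 0.93 ± 0.16, Gsta4 fell by 0.34 ± 0.06 and Gstp1 rose by 0.33 ± 0.07. Of the cortical cell markers, 5 of 6 neuronal genes fell (summed 5945 to 6857 and 4316 to 5065 CPM) and 4 of 6 astrocyte genes fell while 1 rose. Of 5 red cell genes 4 fell (107 to 208 and 60.5 to 177 CPM). Their part in the result was not tested.

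In striatum 5 of 22 members rose and 3 fell, beside 42.4% of all genes, with a median of -0.0056 against 0.04. Gsto1 rose from 14.8 to 16.7 CPM (median 15.8) to 21.7 to 63.2 CPM (median 24.1), without overlap. The log2 change was 0.85 ± 0.16 (adjusted p = 7.56e-05), and 0.58 without the libraries with few counts from long transcripts. One of these, the R6/2 vehicle male 2, stands apart in striatum, and the numbers of members and the median above include it. Gstm5, which was not called, had 204 CPM in that mouse. It had 82.3 to 91.5 CPM in the other R6/2 vehicle mice and 102 to 125 CPM in wild type. Without the libraries with few counts from long transcripts 15 members changed, the 8 counted above among them.

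Gstz1 (0.30 ± 0.07), Gstm4 (0.34 ± 0.09) and the cholesterol sulfotransferase Sult2b1 (0.52 ± 0.15) rose in striatum. Gstm6 (-0.83 ± 0.24) and Sult1a1 (-0.55 ± 0.17) fell. Of 6 markers each, 3 neuronal, 3 oligodendrocyte and 3 choroid plexus genes fell, and 4 astrocyte genes fell while 1 rose. Of 5 red cell genes 4 fell (111 to 262 and 59.4 to 327 CPM). Choroid plexus markers summed to 25.7 to 496 CPM in wild type and 22.1 to 89.6 CPM in R6/2, and the part of these cells in the result was not tested.

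In tibialis 6 of 27 members rose and 5 fell, beside 45.9% of all genes, with a median of 0.21 against 0.03. Gstm7, a mu-class transferase, rose from 1.57 to 3 CPM (median 1.72) to 5.11 to 8.71 CPM (median 6.78), without overlap. Its log2 change was 1.796 ± 0.14 (adjusted p = 5.41e-12). Gstm2, whose human counterpart is the muscle form of the mu class, rose by 0.69 ± 0.13 and Gstt3 by 0.55 ± 0.12.

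Gsto1 (-0.51 ± 0.09), Gstk1, the kappa-class transferase of mitochondria and peroxisomes (-0.37 ± 0.08), and Gstm4 (-0.20 ± 0.06) fell by counts in tibialis, as did Gstm5 and Gstz1. All 5 turn to a positive log2 difference on the deposited FPKM scale, where the median of all genes shifts by 0.60. Relative to that shift they are still below the median gene. All 6 skeletal muscle markers fell, from a sum of 117352 to 140040 CPM to 25562 to 40328 CPM. Of 6 lymphocyte markers 2 rose (0.903 to 1.59 and 1.18 to 6.18 CPM), as did 2 of 6 microglia markers, and the part of these cells in the result was not tested.

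In heart 1 of 23 members rose and 5 fell, beside 14.4% of all genes, with a median of -0.06 against 0.01. Gstk1 fell from 51 to 62.4 CPM (median 53.9) to 33.7 to 41.2 CPM (median 39), without overlap (log2 change -0.51 ± 0.09, adjusted p = 0.00058). Gstm7 fell by 0.33 ± 0.07, Gsto1 by 0.26 ± 0.06, Gsta4 by 0.27 ± 0.08 and Gsto2 by 0.67 ± 0.21, and Gstt3 rose by 0.36 ± 0.11. Cardiomyocyte markers fell in 5 of 6 genes (summed 43030 to 50184 and 34600 to 42498 CPM). Of 6 lymphocyte markers 3 rose (2.81 to 9.89 and 5.37 to 34.6 CPM), and of 5 red cell markers 3 fell (3180 to 7449 and 1507 to 4212 CPM). The part of these cells in the result was not tested. Without the wild-type male 4, the heart library with the most Alb (65.5 CPM), the calls of Gsta4 (adjusted p = 0.0596) and Gsto2 (adjusted p = 0.06) were lost. That library also had the lowest share of counts from long transcripts in heart (34.5%). Without the heart libraries with few such counts, the same 2 calls were lost (adjusted p = 0.0598 and 0.191). By limma-trend on log2(FPKM + 0.1), Gsta4 (adjusted p = 0.182), Gsto1 (0.1) and Gsto2 (0.0623) did not pass.

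**Figure D5:**
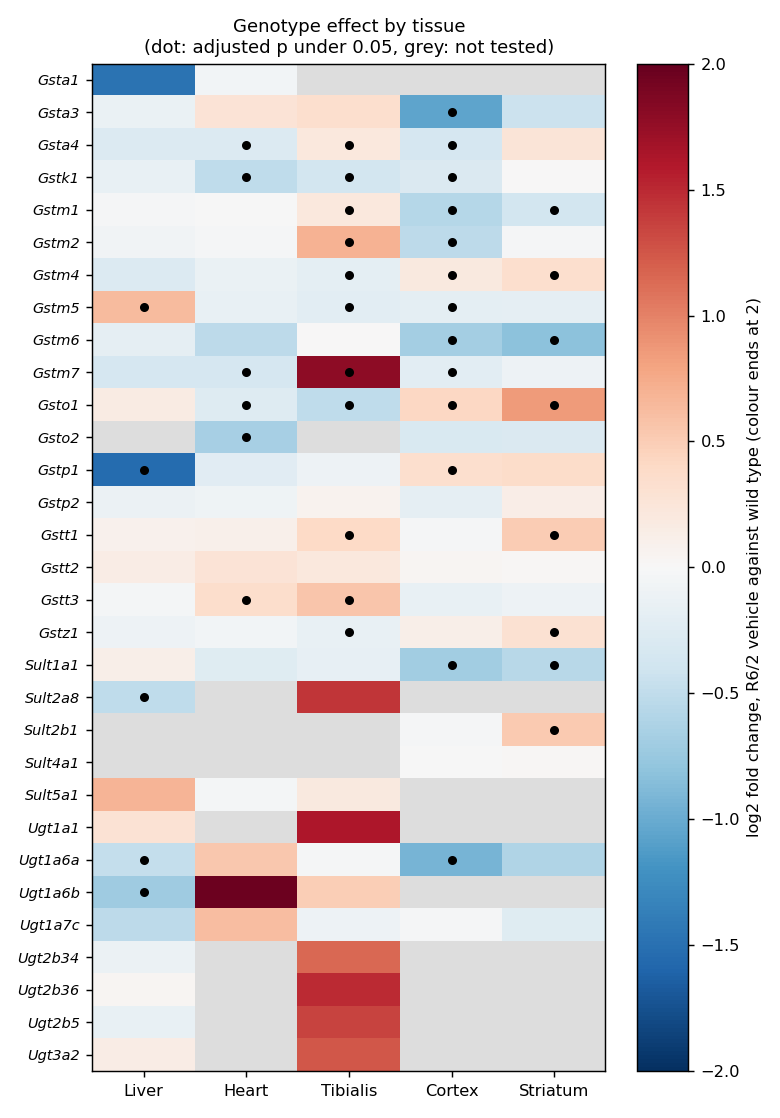
Log2 change of R6/2 vehicle against wild type (n = 8 each) for members tested in a tissue other than liver, red for higher and blue for lower with the colour scale ending at 2, dots where adjusted p is under 0.05 and grey where not tested. Gsto1 is positive in both brain regions and negative in heart and tibialis. On the FPKM scale its sign turns in tibialis and stays negative in heart. Gstk1 carries dots in heart, tibialis and cortex. The strong red tibialis cells of Ugt2b and Sult2a8 carry no dot.

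The compound changed no member outside the liver by the test. At 100 mg/kg, edgeR and DESeq2 each called 0 of 22 members in cortex, 0 of 23 in heart, 0 of 27 in tibialis and 0 of 22 in striatum. Of all genes 0.00571%, 0.0126%, 0% and 0% passed there by edgeR. Unadjusted p was under 0.05 for 3, 2, 2 and 0 of the members, beside 4.19%, 8.01%, 13.7% and 3.9% of all genes. The smallest p belonged in cortex to Gstm2 (log2 difference 0.74 ± 0.19, adjusted p = 0.295), in heart to Gstk1 (0.24, adjusted p = 0.46), in tibialis to Gstk1 (0.21, adjusted p = 0.322) and in striatum to Sult4a1 (0.13, adjusted p = 0.998). Liver differed from these tissues in which members could be tested as well, since Gsta2 and Gstm3 passed the expression filter in no other tissue. In cortex and in striatum, 3 of the 8 libraries at 100 mg/kg were among those with few counts from long transcripts.

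Traces of liver transcripts were present at unequal levels in all 4 other tissues. Alb, the albumin gene, reached 67.6 CPM in cortex and 34.7 CPM in striatum, each in the wild-type female 4, and 65.5 CPM in heart, over medians of 0.03, 0.015 and 0.082 CPM. In tibialis it ran from 0.129 to 1038 CPM with a median of 9.91, and the 30 mg/kg female 4, with the highest value, also had the highest Sult2a8 (5.89 CPM) and Ugt2b5 (10.7 CPM).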

How the data were processed

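Tissue RNA of 32 mice was sequenced, and groups were taken from the submitters' labels. Per the labels' protocols, total RNA was extracted from frozen tissue with a miRNeasy kit and libraries followed Illumina's protocol. CASAVA 1.8.2 is named in the submitters' processing notes, while no source used here names the aligner, the counting tool, the build or whether strand was used. The authors deposited expected counts per gene, estimated and not scaled to depth, of which 67.7% of the values above 0 were whole numbers. They also deposited FPKM, scaled to transcript length and library size, used here for levels between genes and tissues. Value columns not used number 0.

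Symbols, coordinates and transcripts came from GENCODE M21 (GRCm38) and promoters from RefSeq (GRCm38.p6), which has entries for 55 of the 63 members. Expected counts were rounded, filtered with edgeR's filterByExpr by arm, scaled by TMM and tested per tissue over all genes passing the filter with the quasi-likelihood test (edgeR 4.0.16, R 4.3.3). The model had arm and sex, and an arm by sex model gave the sex contrasts. Adjusted p is Benjamini-Hochberg's over all genes tested, the SE is the log2 change divided by the square root of F, and the threshold is 0.05. CPM uses the same scaling. The filter left 52 members in liver, 23 in heart, 27 in tibialis, 22 in cortex and 22 in striatum, and a member that passed through 1 arm only had to differ. Alternatives were other scaling (RLE), no filter, DESeq2 1.42.0, limma-trend 3.58.1 on log2(FPKM + 0.1) and log2(FPKM + 1) for genes with a mean FPKM of at least 0.5, the replicate number as a block, only the 2 arms compared, each liver library left out, and the libraries that stand apart left out. A covariate for the form of the column name, within-sex effects and, outside the liver, leaving out the library with the most albumin transcript were added after seeing the data. In liver 10 names hold a D of unknown meaning, unevenly over the arms. These were 4 of 8 at R6/2 vehicle, 4 at 30 mg/kg (all male), 1 at 100 mg/kg and 1 in wild type. With that covariate the calls of Ugt2b35 at 100 mg/kg (adjusted p = 0.0788) and of the Gstp1 trend (0.0867) were lost. So was that of Ugt2b38 for the sex difference in the genotype effect (adjusted p = 0.0539). The procedure was checked on simulated counts.

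Members and gene lists were chosen with earlier results of these data known. Members given in full are, per liver comparison, up to 8 past the test with the smallest p (the 3 smallest p where under 3 passed), and up to 6 per other tissue for the genotype, with up to 4 genes per list. The count over the list for UDP-glucuronate supply is not reported here. Other members, such as Gsta4, Gsta3, Sult1e1, Sult5a1, Ugt2b1 in females and Gsto2, are named in passing. Totals of 30.1 to 39.04 M counts per library make counting error small for all but the lowest members.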

Additional observations from a re-analysis of the deposited data

Results flagged for a closer look

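In 60 groups of 8 livers (15 members in 4 arms), 3 had 1 mouse far from the others by Dixon's test, where chance alone marks about 1 in 20. These were Gsta1 in the 100 mg/kg male 4 at 185 CPM, Gstm1 in the wild-type female 4 at 1974 CPM and Ugt2b37 in the wild-type female 1 at 9.87 CPM. The next highest values of the same groups were 71.6 CPM for Gsta1, 1621 CPM for Gstm1 and 1.93 CPM for Ugt2b37.

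The genotype effect in liver differed between the sexes for 8 members by the test of the difference itself. On the log2 scale, male minus female, the differences were -3.19 for Gstp1, -1.75 for Ugt2b1, -1.14 for Ugt2b5, -2.31 for Gstp2, -3.15 for Ugt2b38 and 1.10 for Gstt3. For Sult2a5 (7.85) and Sult2a2 (6.12) the fitted size depends on the prior count, since wild-type males held few counts or none. Gstp2 shares 54.3% of its 50-base words with another gene, so its values may include Gstp1 reads. Ugt2b38 shares 37.4%, mainly with Ugt2b5, so its values may include Ugt2b5 reads.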

How the results depend on the processing

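Of 161 member counts under other settings 154 stayed within 1.5 times the reported count, as did 306 of 320 that left out 1 liver library. Those that moved were the following: DESeq2 called 3 members between 100 and 30 mg/kg (0 by edgeR), 13 in the dose trend (8) and 1 for the sex difference in the 100 mg/kg effect (0). Within females 10 members changed with genotype (20). Without a filter 5 passed the sex difference in the genotype effect (8), and without the libraries with few counts from long transcripts 3 differed between R6/2 males and females (5) and 15 changed in striatum (8). The cause was not tested. Leaving out 1 liver library gave 6 to 8 members at 100 mg/kg, 0 to 0 at 30 mg/kg, 0 to 0 between doses, 7 to 11 in the trend, 17 to 21 for genotype, 17 to 25 for 100 mg/kg against wild type, 9 to 14 between wild-type sexes, 2 to 6 between R6/2 sexes, 4 to 11 for the sex difference in the genotype effect and 0 to 0 for that in the 100 mg/kg effect. The 2 came without the R6/2 vehicle female 3 or male 3, and the 4 without the R6/2 vehicle female 2 or 3, the wild-type female 3 or 4, or the wild-type male 3 or 4. On log2(FPKM + 0.1) and log2(FPKM + 1), the 5 members lower with genotype in tibialis turned positive: Gsto1 (0.14 and 0.13), Gstk1 (0.28 and 0.27), Gstm4 (0.45 and 0.40), Gstm5 (both 0.44) and Gstz1 (0.50 and 0.48). The all-gene median shifted there by 0.60 and 0.45, and on the first scale by 0.11 in liver and in heart. The Sult4a1 difference in striatum turned to -0.030 without the libraries with few counts from long transcripts. The groups share replicate numbers, but no label ties a number to a shared litter, batch or day. Same-numbered livers had a median correlation of 0.05, with 20 of 48 pairs over 0.1, against -0.02 and 17 of 144 for other numbers. As not every same-numbered pair was over 0.1, the numbers were not taken as pairs. That rule could miss a weaker tie, so it does not show that same-numbered livers are unrelated. With the number as a block, 8 members passed at 100 mg/kg, 10 in the trend, 20 for genotype and 8 for genotype in heart. Among values of single members, 736 of 789 kept their side of the threshold and their direction, 42 lost the call, 4 gained it and 7 reversed.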
